A study of Drosophila melanogaster with 10 samples.

Results

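Triple regions are places on the Drosophila genome where the peaks of Mod(mdg4)2.2, Su(Hw) and CP190 join into a single stretch, and the regions described here are those that also hold Rump. They were chosen from the peak positions themselves: peaks of the 5 deposited lists sharing 1 bp or more were joined into regions, and a region was kept when it held at least 1 peak each of Rump, Mod(mdg4)2.2, Su(Hw) and CP190, with or without Shep. Of 5224 merged regions, 232 met this rule. They are 232 of 1056 triple regions, and the other 824 triple regions, which lack Rump, serve as the comparison. The presence of the peaks is therefore given by the choice and is no result. The share of regions with a Rump peak was 6.37% over all merged regions and 22.0% over the triple regions.

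The peaks come from chromatin immunoprecipitation followed by sequencing (ChIP-seq) of Kc167 cells, an established line derived from Drosophila embryos. The study concerned the relation of Rump to the function of the gypsy chromatin insulator. Rump was precipitated with the antibodies 10c3 and 5g4, Mod(mdg4)2.2 and Shep each with a guinea pig and a rabbit antibody, and Su(Hw) and CP190 each with a rabbit antibody, which makes 8 ChIP libraries beside 2 inputs. The Rump, Mod(mdg4)2.2, Shep and Su(Hw) libraries were made from the same chromatin preparation, and the CP190 library from another, so preparation and factor cannot be told apart for CP190. Each factor has 1 peak list, libraries already combined, so there are no replicate values, and every interval and test below covers counting error over regions and not the spread between cultures. Regions of a chromosome are also not independent of each other. The number of reads behind the lists is not given in the sources used here.

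Insulators are DNA elements that, with their proteins, keep an enhancer from acting on a promoter on the far side or hold off the spread of repressive chromatin. In the gypsy insulator, named after the retrotransposon in which it was found, the zinc-finger protein Su(Hw) binds the DNA, and Mod(mdg4)2.2 and CP190, both with a BTB domain through which proteins bind each other, complete the core complex. Rump, in full Rumpelstiltskin, belongs to the hnRNP M family, binds RNA and is known for its part in localizing nanos mRNA in the oocyte. Shep (Alan shepard) is another RNA-binding protein that acts on this insulator.

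The typical region held few peaks. Of the 232 regions, 228 held a single Rump peak, and 182 (78.4%, Wilson 95% interval 72.7 to 83.3) held exactly 1 peak each of Mod(mdg4)2.2, Su(Hw) and CP190. In triple regions lacking Rump the latter share was 82.4% (79.7 to 84.9, 679 of 824). The regions with Rump took up 236 of the 338 Rump peaks (69.8%), 288 of the 2678 Mod(mdg4)2.2 peaks (10.8%), 233 of the 2369 Su(Hw) peaks (9.84%), 236 of the 2742 CP190 peaks (8.61%) and 29 of the 1443 Shep peaks (2.01%). Where a protein had more than 1 peak, it was mostly Mod(mdg4)2.2, which had 2 or more in 48 regions (20.7%, 15.98 to 26.4). In triple regions lacking Rump this was so in 141 (17.1%, 14.7 to 19.8). A second CP190 peak was present in 4 of the regions with Rump, and a second Su(Hw) peak in 1. Su(Hw) and CP190 peaks, with list medians of 2106 and 2025 bp, are far wider than Mod(mdg4)2.2 peaks, at 304 bp. A single such peak can span several Mod(mdg4)2.2 peaks, as at chr2L:1046650-1050982, so these counts do not give the number of separate binding sites.

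Within its regions, the Rump peak lay on a Mod(mdg4)2.2 peak itself. A Rump peak overlapped a Mod(mdg4)2.2 peak directly in 232 of 232 regions, a Su(Hw) peak in 232 and a CP190 peak in 230. The Su(Hw) and CP190 counts are nearly given by the choice, since these peaks span most of a region. The widest of each had a median of 2293 and 2102 bp, against 2313.5 bp for the region. Rump peaks were all 256 bp wide and Mod(mdg4)2.2 peaks all 304 bp wide. In 154 regions (66.4%, 60.1 to 72.1) a Rump peak, though not always each one, lay with all of its bases inside a Mod(mdg4)2.2 peak. The midpoint of the Rump peak of highest score was 0 bp to 132 bp from the nearest Mod(mdg4)2.2 midpoint, with a median of 12 bp and quartiles of 4 and 30 bp. The same distance had a median of 32 bp to CP190 (quartiles 12 and 83.6, at most 1329.5 bp) and of 65.5 bp to Su(Hw) (quartiles 23.5 and 151, at most 1569 bp). Mod(mdg4)2.2 had the nearest midpoint in 144 regions, CP190 in 50 and Su(Hw) in 33, with 5 ties. CP190 and Su(Hw) peaks are far wider, with list medians of 2025 and 2106 bp, so their midpoints are set less closely, and the part of peak width in this order was not tested.

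**Figure D1:**
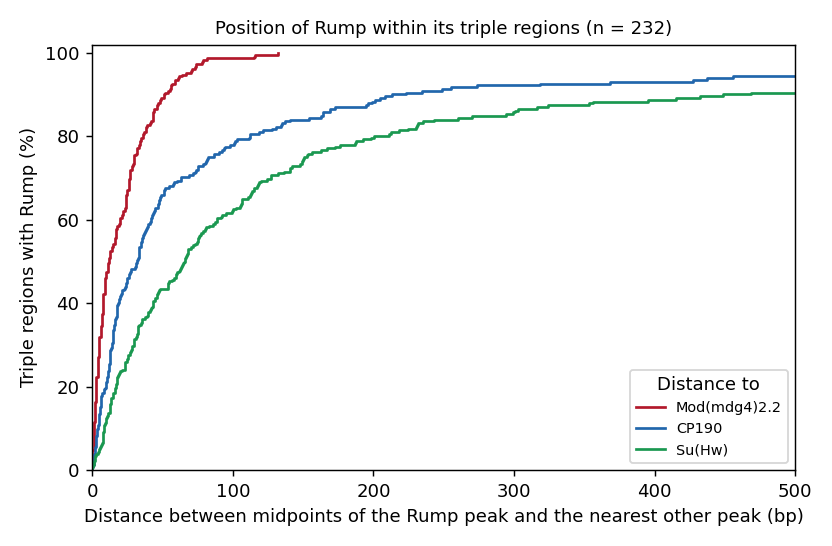
Share of the 232 triple regions with Rump (vertical axis, %) whose Rump midpoint lies within a given distance (horizontal axis, bp, ending before the largest CP190 and Su(Hw) distances) of the nearest Mod(mdg4)2.2, CP190 or Su(Hw) midpoint. Within 50 bp lie 89.2% for Mod(mdg4)2.2, 65.9% for CP190 and 43.5% for Su(Hw).

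The 2 regions where no Rump peak met CP190 were wide, at 3761 and 3431 bp. At chr3L:15800712-15804472 the Rump midpoint was 1194.5 bp from that of CP190 and 540.5 bp from that of Su(Hw). At chr3R:9849864-9853294 it was 1165 bp from CP190 and 54 bp from Su(Hw). All coordinates are of build dm3.

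Regions with several Mod(mdg4)2.2 peaks show at which of these Rump lay. The peak score used here is a number that the authors deposited with each peak. What it measures is not given in the sources used here, so it serves to rank peaks within a list and is not read as an amount of bound protein. In 43 of the 48 regions with 2 or more Mod(mdg4)2.2 peaks (89.6%, 77.8 to 95.5), the Rump peak of highest score lay at the Mod(mdg4)2.2 peak of highest score. The highest Mod(mdg4)2.2 score of these regions had a median of 345, and the second highest a median of 86.7. In the 5 exceptions the scores of the highest and the second peak were closer, at 397 and 340, 411 and 391, 255 and 229, 267 and 214, and 167 and 112. In the regions with 397 and 340, 411 and 391, and 255 and 229, another Rump peak, of lower score, lay on the highest Mod(mdg4)2.2 peak.

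All 4 regions with 2 Rump peaks belonged to the wide, multi-peak regions, and each Rump peak sat on a Mod(mdg4)2.2 peak of its own. The region chr3L:7803872-7810037 was the widest of the 232 (6166 bp) and, with 8 peaks, among those with the most. Its Rump peaks, of scores 38.3 and 54.9, lay on Mod(mdg4)2.2 peaks of scores 411 and 391, while another Mod(mdg4)2.2 peak, of score 306, had none. In chr2L:1046650-1050982 Rump peaks of scores 21.7 and 30.4 lay on Mod(mdg4)2.2 peaks of scores 397 and 340. In chr2L:20286388-20292322 they scored 21.5 and 27.0, on Mod(mdg4)2.2 peaks of 255 and 229, and a Mod(mdg4)2.2 peak of score 72.4 had no Rump. In chrX:18213064-18217668 they scored 20.7 and 23.7, on Mod(mdg4)2.2 peaks of 309 and 363, and one of 124 had no Rump. The Mod(mdg4)2.2 peak left without Rump was the lowest of its region in each of these 3 cases.

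The Rump peaks of these regions were mostly of modest score, with a few far above the rest. The highest Rump score of a region ran from 17.1 to 190, with a median of 26.2 and quartiles of 21.4 and 35.4. It was under 20 in 40 regions and over 50 in 20. The lowest q of the list, 0.00170, was reached in 213 regions, and the highest q was 0.00508. In the 101 regions with Rump that are not triple regions the median score was 21.8 (quartiles 18.7 and 28.3).

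The 8 regions of highest Rump score lay on 3R, X, 3L and 2L. The first, chr3R:19156021-19159507, had a Rump score of 190 but a Mod(mdg4)2.2 score of 289, below the median of the regions with Rump. The next, chrX:20630205-20632790, scored 86.7 for Rump and 489 for Mod(mdg4)2.2. It was followed by chrX:18132228-18134628 with 73.5 and 416. Then came chr3L:19341957-19344173 with 69.8 and 433, and chr3R:12175536-12178067 with 68.1 and 375. The remaining 3 were chr3L:21041741-21044350 with 66.4 and 304, chr3R:12623254-12625925 with 64.6 and 413, and chr2L:489094-491337 with 64.3 and 345. In the first, the Rump midpoint was 57 bp from that of Mod(mdg4)2.2, 2 bp from that of CP190 and 551.5 bp from that of Su(Hw). In the other 7 it lay 2 to 37 bp from a Mod(mdg4)2.2 midpoint.

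Higher Mod(mdg4)2.2 scores went with higher Rump scores across the regions. Ordered by Mod(mdg4)2.2 score into 3 classes of 78, 77 and 77 regions, the median Rump score was 22.5, 24.9 and 33.1. Across the 232 regions, which share their libraries, Spearman's rho was 0.47 and Pearson's r was 0.29. Spearman's rho was 0.39 on 2L (30 regions), 0.45 on 2R (48), 0.43 on 3L (58), 0.51 on 3R (56) and 0.54 on X (39). Pearson's r differed more between the arms, at 0.30, 0.39, 0.40, 0.12 and 0.60 in the same order. The region of Rump score 190 is on 3R, and its part in the low value there was not tested. All these coefficients describe regions of a single pair of lists and carry no test.

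**Figure D2:**
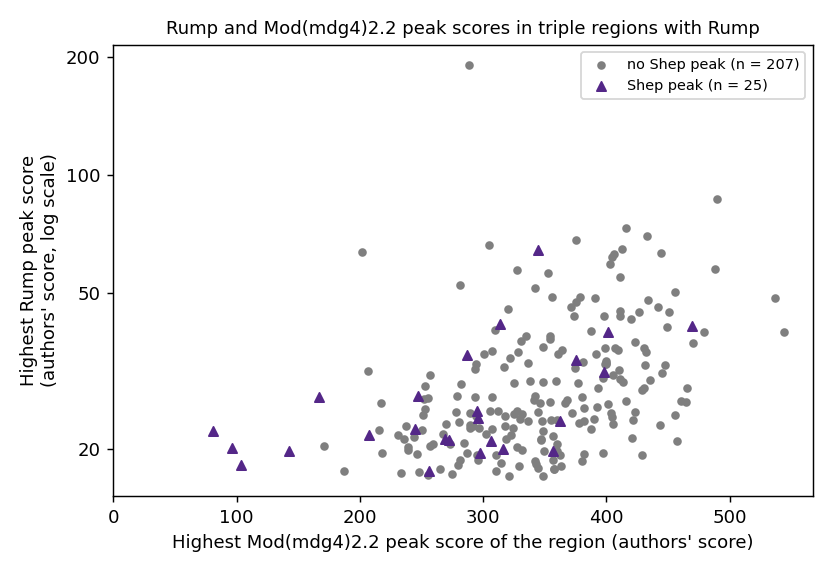
Highest Rump peak score (vertical axis, log scale) against highest Mod(mdg4)2.2 peak score (horizontal axis) of the 232 triple regions with Rump, both the authors' scores, each point a region. Triangles mark the 25 regions with Shep; 5 of the 6 regions with a Mod(mdg4)2.2 score below 186 are among them, and the point at a Rump score of 190 stands alone.

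The comparison with triple regions lacking Rump asked what else set apart those in which Rump was found. The regions with Rump had Mod(mdg4)2.2 peaks of higher score. Their highest Mod(mdg4)2.2 score ran from 80.7 to 544 with a median of 347 (quartiles 294 and 399), and that of the 824 regions lacking Rump from 46.3 to 407 with a median of 159 (quartiles 100.2 and 217). The groups overlapped, and 45 of the 232 regions with Rump (19.4%, 14.8 to 25.0) exceeded 407, the highest score of a region lacking it. A score at or above 186, the median of all triple regions and so reached by 528 of 1056 (50%), was found in 226 of 232 regions with Rump (97.4%, 94.5 to 98.8) and in 302 of 824 lacking it (36.7%, 33.4 to 39.995). The odds ratio was 65.1 (28.6 to 148, adjusted p = 5.17e-71, Fisher's exact test, two-sided, adjusted by Benjamini-Hochberg over 6 comparisons). That Rump lies at Mod(mdg4)2.2 peaks of high score was already known from these lists, so the test gives it no independent support. The present values compare regions that all hold Su(Hw) and CP190 peaks. Only the presence of these peaks is alike on both sides, since their lists hold no scores. The widest Su(Hw) and CP190 peaks of a region were wider at the median with Rump.

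The change with score was steep and set in above the median. In the lowest decile of Mod(mdg4)2.2 score 0 of 106 triple regions held Rump, which by the Wilson interval allows a share of up to 3.50%. The next 4 deciles held 2, 1, 1 and 2 regions with Rump of 105 or 106 each. From there the share was 6.60% (3.24 to 13.01) in the sixth decile, 18.1% (11.9 to 26.5) in the seventh, 34.0% (25.6 to 43.4) in the eighth, 65.7% (56.2 to 74.1) in the ninth and 89.6% (82.4 to 94.1) in the highest. The intervals of the sixth and seventh deciles overlap slightly, as do those of the seventh and eighth. Those of the ninth and the highest overlap neither each other nor any lower one. Whether weaker Rump binding, under the limit of the deposited list, occurs at triple regions of lower Mod(mdg4)2.2 score was not tested.

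**Figure D3:**
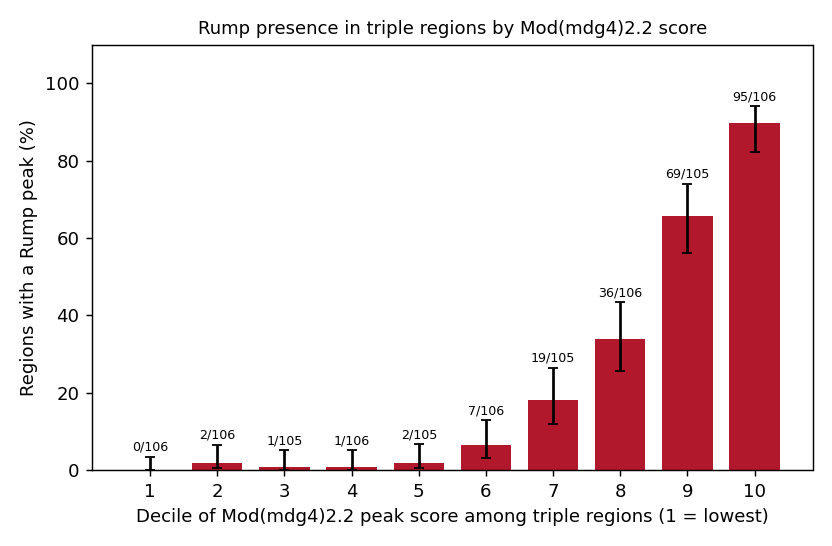
Share of triple regions with a Rump peak (vertical axis, %) in each decile of highest Mod(mdg4)2.2 peak score among the 1056 triple regions (horizontal axis, 1 lowest); bars are shares, whiskers Wilson 95% intervals, and the numbers above are regions with Rump of all regions. The share goes from 0 of 106 in the lowest to 95 of 106 in the highest decile.

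The same order was found on each of the 5 large arms. The median Mod(mdg4)2.2 score with and lacking Rump was 345 and 149 on 2L, 336 and 162 on 2R, 348 and 164 on 3L, 358 and 146 on 3R, and 335 and 167 on X. On 2L, 28 of 30 regions with Rump reached the overall median, on 2R 47 of 48, on 3L 57 of 58, on 3R 55 of 56 and on X 38 of 39.

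**Figure D4:**
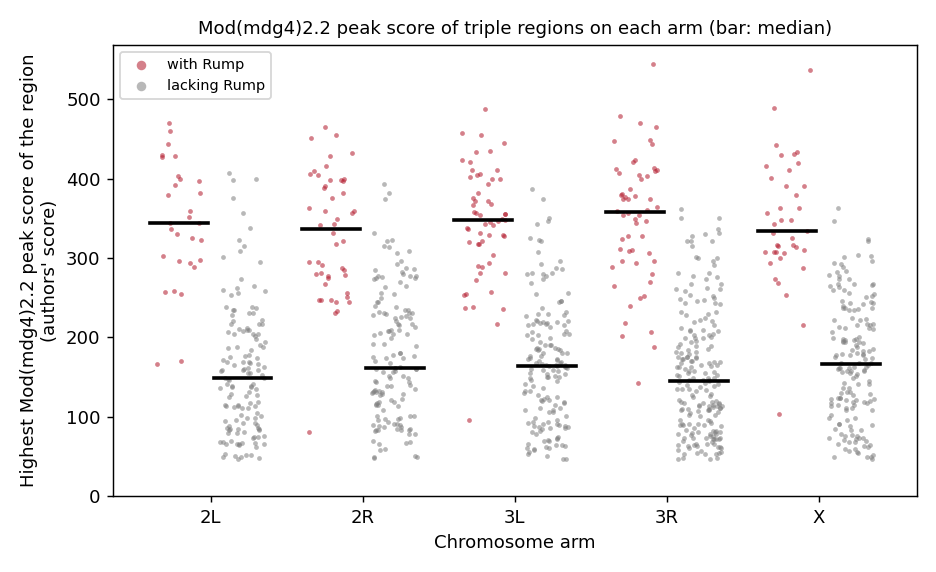
Highest Mod(mdg4)2.2 peak score (vertical axis, authors' score) of each triple region on the 5 large arms (horizontal axis), with Rump (red) and lacking Rump (grey); black bars are medians. On every arm the median with Rump lies between 335 and 358 and that lacking Rump between 146 and 167.

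Exceptions existed on both sides of this order. Of the 6 regions with Rump and a Mod(mdg4)2.2 score below the median, singled out after their values were seen, the lowest was chr2R:12022067-12024341, with a Mod(mdg4)2.2 score of 80.7 and a Rump score of 22.3. The others scored 96.2 at chr3L:2465613-2468010, 104 at chrX:10660390-10663588, 142 at chr3R:13359311-13361478, 167 at chr2L:6365970-6368284 and 171 at chr2L:5364581-5367154. A Shep peak was present in 5 of these 6, the last being the one without. In the other direction, 11 of the 106 regions in the highest decile lacked Rump. The 5 of highest score were chr2L:13910873-13913036 (407), chr2L:4811349-4813521 (399.5), chr2L:19886457-19888778 (398.5), chr2R:4893498-4895685 (393) and chr3L:7424557-7426955 (388). Each of these 5 had a single peak of each insulator protein and no Shep, with Mod(mdg4)2.2 at 2.5 to 170 bp from the Su(Hw) midpoint and 8 to 80 bp from that of CP190.

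Regions with Rump were somewhat wider. Their width, measured over the insulator peaks alone so that neither Rump nor Shep peaks could extend it, ran from 2062 to 6166 bp with a median of 2313.5 bp, and that of regions lacking Rump from 1311 to 7710 bp with a median of 2222.5 bp. The ranges overlap nearly throughout, but 118 of the 824 regions lacking Rump (14.3%, 12.1 to 16.9) were narrower than the narrowest region with Rump. The widest Su(Hw) peak of a region had a median width of 2293 bp with Rump and 2149.5 bp without, and the widest CP190 peak of 2102 and 2047.5 bp. Of whole regions, Rump and Shep peaks included, 143 of 232 with Rump (61.6%, 55.2 to 67.7) and 385 of 824 lacking it (46.7%, 43.3 to 50.1) were at least as wide as the median of all triple regions, 2254.5 bp, an odds ratio of 1.83 (1.36 to 2.47). More width gives more room for any peak to overlap, so width is not independent of the rule and is given with no test. The odds ratio was 1.21 (0.806 to 1.83) within 4 equal classes of Mod(mdg4)2.2 score, and in the highest class the median widths over the insulator peaks were 2320 bp with Rump and 2316 bp without it. From the lowest class up, the classes held 3, 3, 39 and 187 regions with Rump. In the highest class the median Mod(mdg4)2.2 score still differed, at 361 with Rump and 315 without it. With all peaks resized to 300 bp the odds ratio was 1.13. It was larger, at 3.45, in regions with exactly 1 peak of each insulator protein, and at 2.94 with the upper 50% of Rump peaks by score. Over the insulator peaks, 33 of 232 regions with Rump (14.2%, 10.3 to 19.3) and 145 of 824 lacking it (17.6%, 15.1 to 20.3) exceeded 3000 bp, with overlapping intervals.

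The distances between the insulator proteins were slightly shorter at the median in regions with Rump, and neither difference passed the threshold. The distance from the midpoint of the highest Mod(mdg4)2.2 peak to that of the nearest Su(Hw) peak had a median of 54.25 bp in regions with Rump and 64.5 bp in those lacking it. The corresponding distance to CP190 had medians of 26.5 and 31 bp. A Su(Hw) distance below the median of all triple regions, 61.25 bp, was found in 52.6% (46.2 to 58.9) with Rump and 49.3% (45.9 to 52.7) lacking it, which gave an odds ratio of 1.14 (interval 0.853 to 1.53, adjusted p = 0.496, Fisher's exact test). A CP190 distance below 30 bp was found in 53.4% (47.0 to 59.8) and 48.7% (45.3 to 52.1), and the odds ratio was 1.21 (interval 0.905 to 1.62, adjusted p = 0.392, Fisher's exact test). Counted per Mod(mdg4)2.2 peak instead of per region, with 238 peaks meeting Rump and 968 not, both passed by Fisher's exact test. The odds ratio was then 1.54 for Su(Hw), with an adjusted p of 0.00750 by that exact test, and 1.66 for CP190, with an adjusted p of 0.00196. That count takes in the further Mod(mdg4)2.2 peaks of a region, whose part in the result was not tested. In regions with exactly 1 peak of each insulator protein neither passed, with odds ratios of 1.07 for Su(Hw) (adjusted p = 0.813, Fisher's exact test) and 1.36 for CP190 (adjusted p = 0.238, Fisher's exact test). The direction turned for Su(Hw) with all peaks resized to 300 bp (0.900) and for CP190 within 4 equal classes of Mod(mdg4)2.2 score (0.935), neither passing.

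Shep was present in 25 of the regions with Rump (10.8%, 7.41 to 15.4) and in 59 of those lacking it (7.16%, 5.59 to 9.13), against 7.95% of all triple regions and 26.4% of all merged regions. The odds ratio of 1.57 (0.957 to 2.56) did not pass the threshold (adjusted p = 0.226, Fisher's exact test). With the upper 50% of Mod(mdg4)2.2 and of Shep peaks by score it was 2.50 and passed (6.96% against 2.90%, adjusted p = 0.0309, Fisher's exact test). A q above 0.05 was found for 9 of 29 Shep peaks in regions with Rump (31.0%, 17.3 to 49.2) and for 20 of 62 in those lacking it (32.3%, 22.0 to 44.6).

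Among the 25 regions with Shep, 4 held 2 Shep peaks, and in 14 a Shep peak overlapped a Rump peak itself. The distance from the Rump to the nearest Shep midpoint ran from 18 to 2122 bp, with a median of 261 bp, so that in the other 11 the proteins shared the merged stretch but not the peak. The Mod(mdg4)2.2 score of the regions with Rump and Shep had a median of 295, against 349 in the 207 with Rump and no Shep, and their Rump score a median of 22.6 against 26.4. In regions lacking Rump the medians of Mod(mdg4)2.2 score were 161 with Shep and 159 without. Among regions with Rump, Shep was thus at 5 of 6 below the median Mod(mdg4)2.2 score and at 20 of 226 (8.85%, 5.80 to 13.3) at or above it, and among those lacking Rump at 31 of 522 (5.94%, 4.22 to 8.31) and 28 of 302 (9.27%, 6.49 to 13.1). This split was looked at after the values had been seen and was not tested.

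The regions in which Shep and Rump peaks overlapped had widely different scores. By Rump score they were led by chr2L:489094-491337, with a Rump score of 64.3, a Shep score of 133 and 261 bp between midpoints. In chr2L:14705291-14707664 the Rump score was 41.4, the Mod(mdg4)2.2 score 470 and the Shep score 84.5, with Shep 18 bp from Rump. In chr2L:6365970-6368284 Rump scored 27.2 and Shep 133, and in chrX:18213064-18217668 Rump scored 23.7 and Shep 86.8. In chr2R:12022067-12024341 Rump scored 22.3 and Shep 88.2, and in chr3R:17027912-17030956 Rump scored 21.8 and Shep 186.

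In the spacing of triple regions no difference passed the threshold. The nearest other triple region was 118 to 370267 bp away, with a median of 28898 bp, and in regions lacking Rump 9 to 796067 bp, with a median of 27072.5 bp. A neighbour nearer than 27178 bp, the median of all, was found in 49.1% (42.8 to 55.5) and 50.2% (46.8 to 53.6), for an odds ratio of 0.957 (interval 0.715 to 1.28, adjusted p = 0.824, Fisher's exact test). Counted per Mod(mdg4)2.2 peak, where another peak of the same region is a neighbour, the odds ratio was 0.699 and passed (adjusted p = 0.0253, Fisher's exact test), and it was at or above 1 under 5 other settings. A neighbour within 10000 bp was present for 53 regions with Rump (22.8%, 17.9 to 28.7) and 236 lacking it (28.6%, 25.7 to 31.8).

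**Figure D5:**
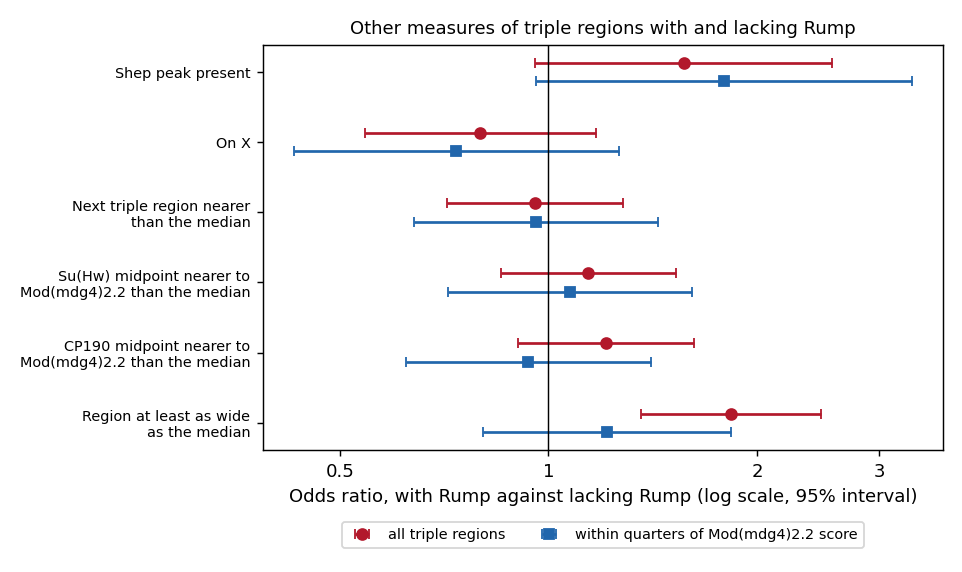
Odds ratios (horizontal axis, log scale) for 6 measures in the 232 triple regions with Rump against the 824 lacking it; points are estimates and lines 95% intervals, for all triple regions (circles) and pooled within 4 equal classes of Mod(mdg4)2.2 score (squares). Every interval spans 1 but that of region width over all triple regions (1.36 to 2.47), which spans 1 within those classes (0.806 to 1.83). From the lowest up, the classes held 3, 3, 39 and 187 regions with Rump.

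In how often regions with Rump followed each other the share was near that of all triple regions. The next triple region along the chromosome held Rump for 48 of 232 regions with Rump (20.7%, 15.98 to 26.4) and for 182 of 817 lacking it (22.3%, 19.6 to 25.3), against 22.0% of all triple regions. Of the 232, 88 (37.9%, 31.9 to 44.3) lay in series of 2 or more, and 144 stood between triple regions lacking Rump or at a chromosome's end. The distance from a region to the nearest other region with Rump, for the 231 with one on the same chromosome, had a median of 151204 bp, and 12 had one within 10000 bp. The longest series had 6 triple regions with Rump in a row, over 514043 bp at chr3L:20191813-20705855. Its members had Rump scores of 23.7, 24.8, 37.6, 28.9, 39.9 and 48.8 and Mod(mdg4)2.2 scores of 336, 372, 423, 253, 402 and 356, and a Shep peak was present in the fifth. The next longest had 4, over 247407 bp at chr3R:22881013-23128419. Series of 3 were found at chr3L:2243146-2468010, over 224865 bp, and at chr2R:10218597-10315784, over 97188 bp.

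Each large arm carried regions with Rump. They were 30 of 170 triple regions on 2L (17.6%, 12.7 to 24.1), 48 of 194 on 2R (24.7%, 19.2 to 31.3), 58 of 218 on 3L (26.6%, 21.2 to 32.8), 56 of 262 on 3R (21.4%, 16.8 to 26.7) and 39 of 205 on X (19.02%, 14.2 to 24.9). The intervals of all 5 arms overlap. X held 16.9% (12.6 to 22.2) of the regions with Rump on these arms and 20.3% (17.7 to 23.2) of those lacking it, with an odds ratio of 0.798 (interval 0.543 to 1.17, adjusted p = 0.392, Fisher's exact test). In the highest of 4 equal classes of Mod(mdg4)2.2 score the regions with Rump were 25 of 36 on 2L, 34 of 51 on 2R, 49 of 65 on 3L, 45 of 63 on 3R and 34 of 47 on X. The Rump scores of the regions differed little between arms at the median, with 25.6 on 2L, 23.9 on 2R, 26.4 on 3L, 27.1 on 3R and 28.7 on X, each within the quartiles of all 232. Shep was found in 5 of the regions with Rump on 2L, 9 on 2R, 3 on 3L, 3 on 3R and 5 on X. As a share of the way to the highest peak end of the arm, the median position of regions with and lacking Rump was 51.4% and 57.7% on 2L, 56.2% and 50.8% on 2R, 38.7% and 38.0% on 3L, 47.4% and 55.4% on 3R, and 48.3% and 43.8% on X. The medians with Rump were thus nearer the start of the numbering on 2L and 3R and farther from it on 2R, 3L and X. On every arm the ranges between quartiles overlapped, and position was not tested. Outside these arms there was 1 region with Rump, chr4:435172-438246, with a Rump score of 31.6 and a Mod(mdg4)2.2 score of 207, among 5 triple regions of chromosome 4. The 2 triple regions of the heterochromatic scaffold 3LHet had none.

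For the Rump peak, the limit of the rule cut through few cases. Every Rump peak of the 232 regions lay with all 256 bases inside the rest of its region. No region was thus a member by a marginal overlap of Rump. Overlaps among the insulator peaks, which are wide for Su(Hw) and CP190, were not examined in this way. With all peaks resized to 300 bp there were 198 regions with Rump among 848 triple regions. The smallest overlaps with a Mod(mdg4)2.2 peak were 148 bp at chr2R:7125863-7127924, 164 bp at chr3L:2465613-2468010 and 165 bp at chr2R:9190686-9192890. Of the regions lacking Rump, those nearest to a Rump peak were chr2R:3773795-3775849 at 1031 bp, chr2R:20177519-20179823 at 1067 bp and chr2R:12755734-12758033 at 1416 bp. Their Mod(mdg4)2.2 scores were 152, 181 and 217.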

How the data were processed

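The authors deposited 1 peak list for each of the 5 proteins. The submitters' processing notes name Bowtie 0.12.8, Picard 1.77, Trimmomatic 0.20, bedtools 2.17.0 and cutadapt 1.1, and build dm3, with no role or order. For the peak caller, its threshold and the way in which libraries were combined nothing is stated in the labels. The Rump, Mod(mdg4)2.2 and Shep lists hold a score for each peak, as deposited by the authors, whose meaning and normalization the labels do not state, and a value that by the narrowPeak layout is the deposited −log10 of a q-value. The Su(Hw) and CP190 lists, as deposited, hold positions alone. A change in the callers' thresholds would change which regions count as lacking Rump.

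Starts are given counted from 1. Peaks that overlapped by 1 bp were merged. Regions with and lacking Rump were compared with Fisher's exact test, two-sided, on 2 by 2 counts, measured values being divided at the median of all triple regions, and adjusted by Benjamini-Hochberg over 6 comparisons with a threshold of 0.05. Intervals of shares are Wilson 95% intervals and those of odds ratios Woolf 95% intervals. Stratified odds ratios are Mantel-Haenszel estimates over 4 equal classes of Mod(mdg4)2.2 score. Fisher's exact test and the stratified test were tried on these regions with random Rump labels, for CP190 distance only. For Mod(mdg4)2.2 score, Fisher's exact test was tried with the scores of the randomly labelled regions raised. Random labels cannot show the effect of dependence between regions. Alternatives were other merging rules, peaks of 300 bp, upper 50% of scores, single-peak regions, counting per Mod(mdg4)2.2 peak, and leaving out arms. Members, lists and measures were chosen with earlier results of these data known. Regions were named by rank of Rump score, of Mod(mdg4)2.2 score, of overlap or of peak number. No genome of build dm3 was used here, so no sequence or gene is given. The work used pandas 2.3.3, SciPy 1.17.1, statsmodels 0.14.6, NumPy 2.4.6 and matplotlib 3.10.9 under Python 3.11.15.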

Additional observations from a re-analysis of the deposited data

How the results depend on the processing

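The difference in Mod(mdg4)2.2 score kept its direction and passed the threshold in all 15 alternatives, with odds ratios from 44.5 to 357, the latter without regions holding Shep, an alternative chosen after seeing the data. There, 99.5% of 207 regions with Rump and 36.6% of 765 lacking it reached the median, so very few regions below it set the size of that ratio. The difference for X kept its direction and did not pass in 15 (0.694 to 0.926). Shep passed in 1 of 16, with the upper 50% of Mod(mdg4)2.2 and Shep scores (2.50). Counted per Mod(mdg4)2.2 peak, spacing (0.699), Su(Hw) distance (1.54) and CP190 distance (1.66) passed, where a region with several peaks is counted more than once. Spacing lost or changed its direction, without passing, with peaks of 300 bp (1), the upper 50% of Mod(mdg4)2.2 and Shep scores (1.08), 1 peak of each insulator protein (1.01), without 3R (1.13) and without X (1.04). Su(Hw) distance did so with peaks of 300 bp (0.900), and CP190 distance within 4 equal classes of Mod(mdg4)2.2 score (0.935). The cause was not tested. Width moved to 1.13 with peaks of 300 bp, 1.21 within those classes, 2.94 with the upper 50% of Rump scores and 3.45 with 1 peak of each insulator protein. The number of regions with Rump was 198 with peaks of 300 bp and 132 with the upper 50% of Rump scores. Width was not computed per Mod(mdg4)2.2 peak, where it is constant. No paired analysis was possible because each protein has 1 list and the labels give no replicate numbers. The unknown read depth limits how far absence of a peak can be read as absence of binding.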
